A study of Danio rerio with 6 samples.

Results

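The libraries described here are the 3 made from zebrafish (Danio rerio) embryos injected with a control morpholino and collected at day 4 after fertilization. They were chosen by their titles, which number them 1 to 3, and are 3 of the 6 libraries of the series. A morpholino is an antisense oligomer injected into the young embryo to block a transcript. The series used one against glut12 (listed as slc2a12), a sugar transporter gene, and its control counterpart, whose sequence the labels do not give. Each library was made from total RNA of 10 whole embryos pooled together. No strain is named, and separate clutches are not stated, so the spread between pools may be partly technical. All control embryos had been injected, so the values describe injected embryos. Libraries from glut12 morphants were not used.

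At this age the zebrafish has hatched and swims. Its trunk is filled with fast muscle fibres, its eyes respond to light, its liver, pancreas and gut have formed, and the yolk is nearly used up. RNA of a whole embryo is a mixture of all these tissues, so the reads of a gene reflect both how many cells express it and how much RNA each of them holds. Fewer cells of a type and less RNA per cell cannot be told apart in such samples.

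The deposited values were read counts of 31452 genes, scaled to a common library size and rounded to whole numbers. They are not divided by gene length, so the order of genes is an order of read share, and a long transcript collects more reads than a short one at the same number of molecules. The values summed to 11762915 in control 1, 11449397 in control 2 and 11065259 in control 3. One read was worth about 1.56 units in control 1, 0.986 in control 2 and 1.08 in control 3, which puts the depths at about 7550000, 11610000 and 10250000 reads. Control 1 was therefore the shallowest library. Of the genes listed, 24250 (77.1%) had a value of at least 1 in every control and 4613 (14.7%) were at 0 in every control. There were 15714 genes with a mean of at least 50 and 1869 with a mean of at least 1000.

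Control 1 stood apart from the other pools. Over the 15714 genes with a mean of at least 50, 39.0% differed between controls 1 and 2 by more than the 95% counting interval of the estimated reads, 40.8% between controls 1 and 3, and 25.0% between controls 2 and 3. The median squared difference was 5.00, 5.37 and 2.72 times that of counting alone. No pair therefore agreed within sampling noise, and the 3 libraries were kept as 3 samples. Group means below are given with the standard deviation (SD, n = 3), and the share of the MT chromosome is also given without control 1. Other means move without control 1 as well, such as the exocrine pancreas share, from 0.270% to 0.230%.

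Reads were concentrated in few genes. The 10 genes with the highest means held 8.41% of the total in control 1, 8.59% in control 2 and 8.17% in control 3 (mean 8.39% ± 0.215). The 20 highest held 13.0% ± 0.299, the 100 highest 28.0% ± 0.839 and the 1000 highest 55.6% ± 1.41. Counting from the highest gene down, 600 genes were enough to reach 50% of the reads in control 1, against 666 in control 2 and 744 in control 3. To reach 90%, 7474, 7801 and 8019 genes were needed. Control 3 was the least concentrated pool by each of these measures. Control 1 was the most concentrated from the highest 100 genes down, while the highest 10 and 20 genes held most in control 2. When each library was ranked alone, 7 genes were among the highest 10 of all 3 libraries, 18 among the highest 20 and 93 among the highest 100.

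The gene with the highest mean was actc1b, an actin of muscle, with 184066 in control 1, 172793 in control 2 and 141856 in control 3. It alone held 1.45% ± 0.150 of the total. Next came mt-co1, the catalytic subunit of cytochrome c oxidase encoded in the mitochondrial genome, with 161791, 124939 and 126085. After it came krt4, a keratin of the skin surface, with 100223, 118497 and 85992. The first and last of these were lowest in control 3 and mt-co1 was lowest in control 2, and their coefficients of variation were 13.1%, 15.2% and 16.0%. The translation elongation factor gene eef1a1l1 followed, at 105921, 101216 and 86963. Steadier between pools was atp2a1, the calcium pump of the fast muscle reticulum, at 87882, 84741 and 82044, a coefficient of variation of 3.44%.

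**Figure D1:**
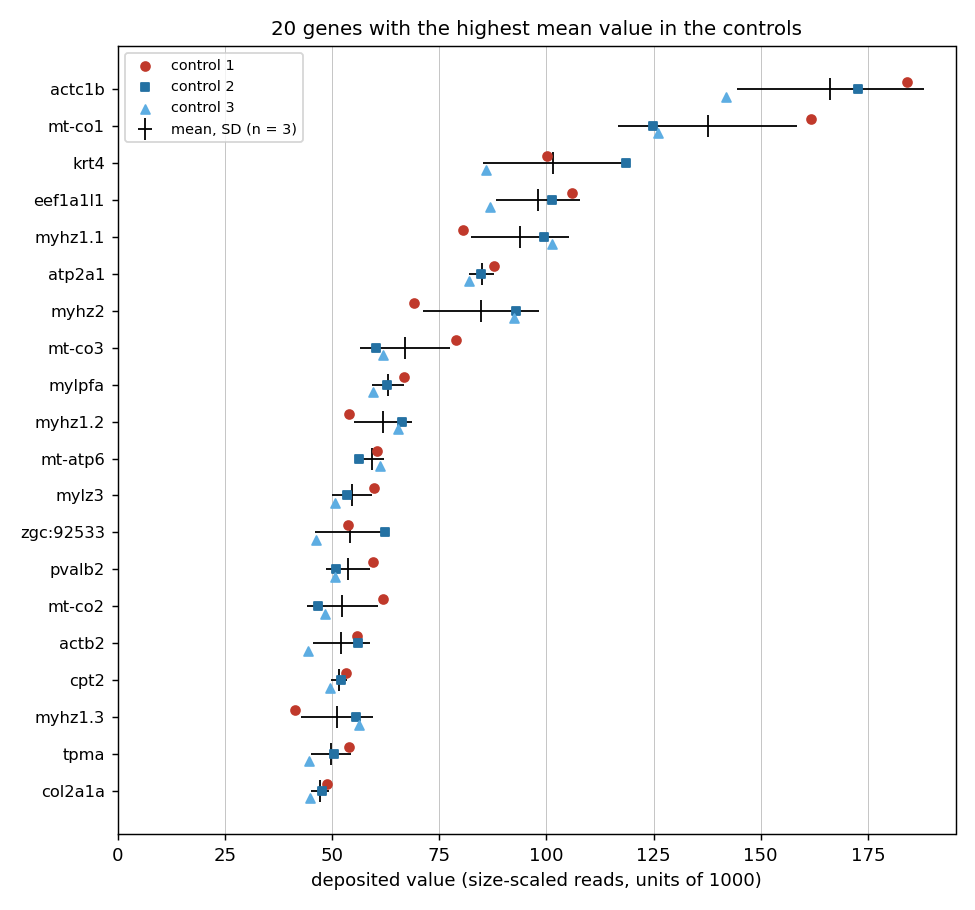
The 20 genes with the highest mean are plotted with their deposited value (size-scaled reads, axis in units of 1000) in each control library, and the black bars show mean and SD (n = 3). The gene actc1b leads in every library, while the myosin heavy chain genes myhz1.1, myhz2, myhz1.2 and myhz1.3 lie lowest in control 1 and the mitochondrial genes mt-co1, mt-co2 and mt-co3 highest in it.

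Genes of fast skeletal muscle were 10 of the highest 20 and 23 of the highest 100. Of the remaining 77, 11 encode ribosomal proteins and 10 lie on the MT chromosome. Skin, connective tissue matrix, liver plasma proteins and translation factors gave 5 each, photoreceptors gave 4, and 20 belong to none of the 41 lists used. These 20 include the myosin heavy chain gene myhc4 and the keratin gene krt1-19e (listed as si:dkeyp-113d7.4), so the counts by list are not complete. Chromosome 5, which carries the myhz genes, held the largest share of reads, 7.39% ± 0.497, followed by chromosome 3 with 7.12% ± 0.117 and chromosome 19 with 6.54% ± 0.267.

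Some places near the top are uncertain, because neighbouring genes had nearly the same value in every library. The gene cpt2, which encodes an enzyme of mitochondrial fatty acid import, stood at 53217, 52113 and 49542, and its neighbour on chromosome 8, the cartilage collagen gene col2a1a, at 48887, 47657 and 44894. Their difference was 4330, 4456 and 4648 units. Likewise slc25a43 (43368, 39755 and 36411) lay within 171 units of slc25a5, a mitochondrial ADP/ATP carrier gene, in each library, and HPCAL1 (29234, 32779 and 34803) within 488 units of the apolipoprotein gene apobb. In all, 22 pairs of near neighbours with means of at least 1000 were picked for similar values and a nearly constant ratio over the libraries. Their ratios lay between 0.991 and 1.24 and varied by at most 2.95%, which follows from that selection and is no result. The number of pairs screened is not given here, so 22 cannot be judged against chance. Whether the genes of these pairs share reads could not be checked without gene models of the build used. Some pairs are close copies instead, such as the lens crystallin genes crygm2d11 and crygm2d14 on chromosome 9. Counts may also have been divided among the copies of the myhz, crystallin and globin genes, so single members of these families are uncertain.

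Fast muscle genes held 10.1%, 10.5% and 10.3% of the reads (mean 10.3% ± 0.217), more than any other list. All 61 members were detected in every control. The list was steady in sum, but its members did not vary together. The myosin heavy chain genes, which encode the motor of the thick filament, had their lowest value in control 1. For myhz1.1 the values were 80660, 99451 and 101265, for myhz2 69216, 92804 and 92537, and for myhz1.3 41472, 55553 and 56310. In contrast, pvalb2, a calcium-buffering parvalbumin, stood at 59549, 50839 and 50637, and the myosin light chain gene mylz3 at 59910, 53456 and 50681. Both genes, which encode short proteins of the same fibres, were highest in control 1. Not all such genes were: pvalb1 stood at 45722, 49393 and 38944 and the troponin gene tnni2a.4 at 16370, 17307 and 15454. Of 27 troponin, tropomyosin, myosin light chain and parvalbumin genes of fast, slow and heart muscle, 18 were highest in control 1 and 3 lowest.

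Slow muscle held 0.253% ± 0.0129, led by mybphb (10254, 10362 and 8414) and the slow myosin gene smyhc1 (5299, 7299 and 7420). Heart genes held 0.0714% ± 0.00375. The ventricular myosin gene vmhc stood at 801, 1063 and 993, the atrial myosin gene myh6 at 64, 91 and 122, and the light chain gene myl7, a marker of all heart muscle, at 358, 243 and 284. The highest pool thus differed from gene to gene, and the list's share differed by 1.11-fold between its highest and lowest pool.

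Skin had the most variable share among the lists that held over 1% of the reads. The list held 2.65% in control 1, 3.07% in control 2 and 2.46% in control 3, and krt4 made up 32.6% of it. Besides krt4, the keratin genes zgc:92533 (53846, 62423 and 46227; current symbol krt91), cyt1 (33317, 38944 and 29039) and cyt1l (31245, 36050 and 26298) were highest in control 2 and lowest in control 3. The smaller members krt97, listed as zgc:92061, and epcam, a cell adhesion gene of epithelia, did not share this order. Their values were 2867, 2294 and 2054 for krt97 and 2571, 1796 and 2325 for epcam. Ionocytes, the salt-transporting cells of the skin, held 0.192% ± 0.00815, led by the sodium pump gene atp1a1a.1 at 7787, 7817 and 8050.

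Skeletal matrix was among the steadiest groups. Cartilage genes held 1.09% in control 1, 1.099% in control 2 and 1.08% in control 3 (mean 1.09% ± 0.00912), with col2a1a 37.9% of the list, and matn1, a cartilage matrix protein gene, at 11517, 10082 and 9518. Bone and connective tissue genes held 1.42% ± 0.0307, led by the collagen I genes col1a1a (49532, 43404 and 40301), col1a1b (25582, 24051 and 20546) and col1a2 (23399, 21289 and 19488). These 3 chains had the same order over the pools. The bone transcription factor gene sp7 was low, at 48, 80 and 112.

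**Figure D2:**
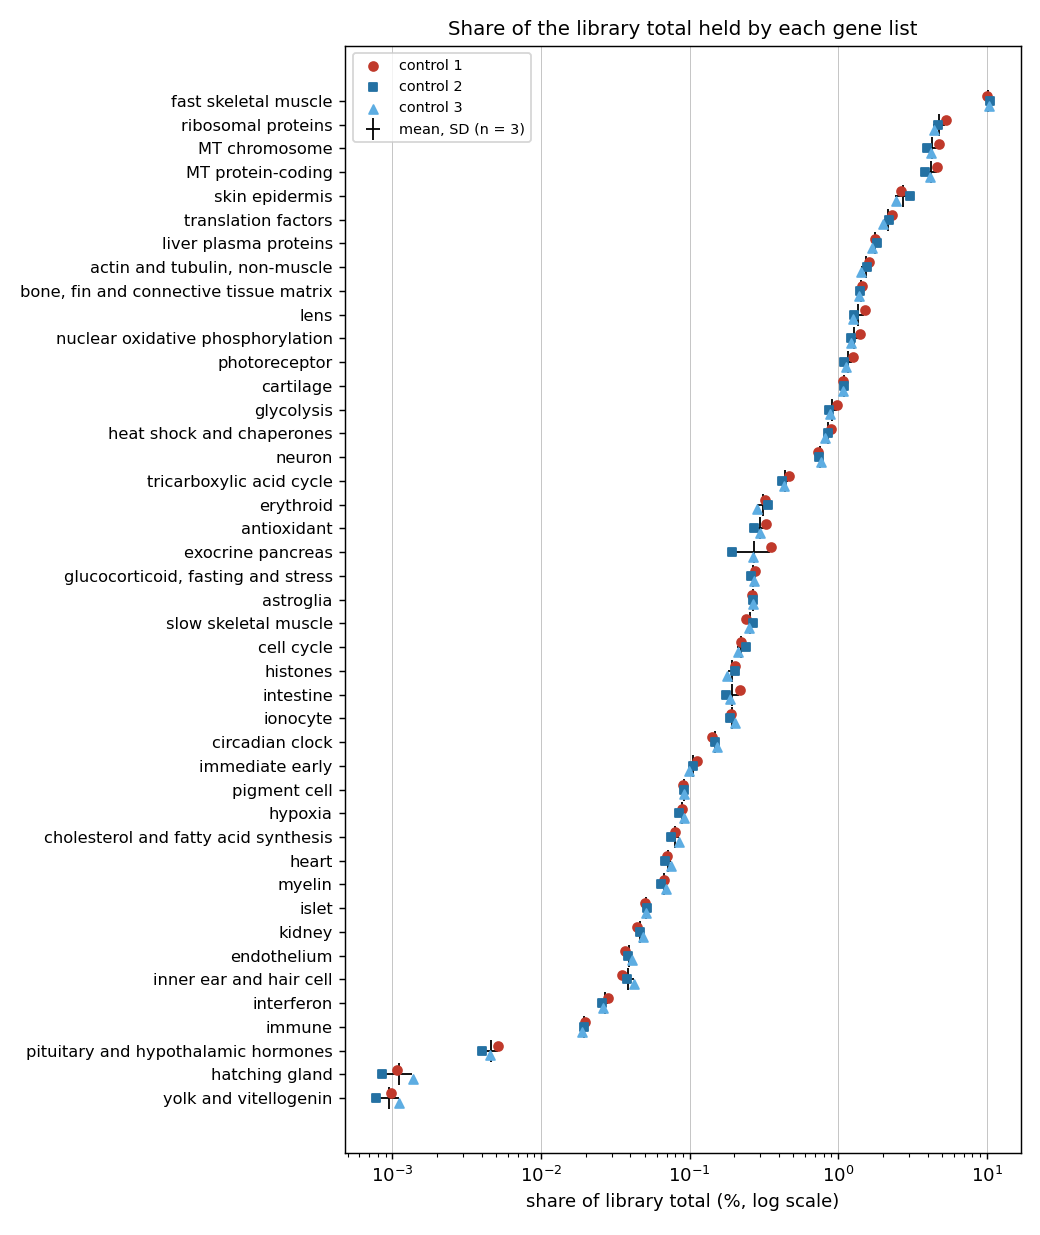
Each gene list is plotted with its share of the library total (%, log scale) in each control, and the black bars show mean and SD (n = 3). Shares span from about 10.3% for fast muscle to 0.000953% for the yolk genes, and the exocrine pancreas has the widest spread among lists above 0.1%.

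Eye genes were prominent among the tissues. Lens genes held 1.51%, 1.29% and 1.27%, with the crystallin gene crybb1 at 13510, 11896 and 10373. Photoreceptor genes held 1.26%, 1.104% and 1.14%. Among the cone pigments, the ultraviolet opsin gene opn1sw1 stood at 27710, 21866 and 22503. The red opsin gene opn1lw2 followed with 18232, 16226 and 15842, the green opsin gene listed as opn1mw1 (current symbol opn1mw2) with 14812, 11684 and 12404, and the blue opsin gene opn1sw2 with 7857, 6765 and 6622. Of the tandem copies, opn1lw1 was lower, at 2318, 2037 and 1865, and opn1mw3 at 50, 11 and 23, while opn1mw4 was listed at 0 in every control. These opsins, opn1mw4 aside, were highest in control 1. The same held for gnat2, the cone transducin gene (8512, 7166 and 7275). The photoreceptor genes cnga3b (28, 71 and 67) and cnga3a (126, 244 and 240) were instead lowest in control 1. Of the 44 photoreceptor members with a mean of at least 50, 27 were highest in control 1 and 9 lowest. Over all genes tested, 42.1% were highest in control 1 and 36.8% lowest.

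Liver plasma protein genes held 1.77%, 1.83% and 1.69%. The apolipoprotein genes apoa1b (31993, 30926 and 24200), apoa2 (28395, 28668 and 26362) and apoa1a (27003, 28691 and 21041) were lowest in control 3, and apobb was lowest in control 1 at 28746. The hepatocyte marker fabp10a, a fatty acid binding protein gene, stood at 1449, 907 and 792. Intestinal genes held 0.219%, 0.177% and 0.188% (mean 0.194%), and the mean was 0.0970% with members matched by the files' symbols alone. The villus cytoskeleton gene vil1 stood at 2145, 1390 and 1447 and fabp2, the intestinal fatty acid binding protein gene, at 2244, 1581 and 1606, both highest in control 1.

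The exocrine pancreas showed the widest spread between pools among tissues holding over 0.1% of the reads. Its share was 0.351% in control 1, 0.194% in control 2 and 0.267% in control 3, a 1.81-fold range. The trypsin gene prss1, listed as try, stood at 4654, 2358 and 3324, the chymotrypsinogen gene ctrb1 at 5877, 3057 and 4191, and the elastase gene ela2 at 1491, 487 and 869. The order control 1, control 3, control 2 held in 18 of the 22 members with a mean of at least 50 (81.8%), against 19.2% of all genes tested, and in 13 of 20 intestinal members (65.0%). Control 2 was highest in 0 of the members of either list, against 28.0% of all genes tested. The transcription factor gene ptf1a, expressed in acinar cells, stood at 30, 30 and 27. It lies under the mean of 50 used for comparisons and cannot show whether acinar cells differed in number. Islet genes held 0.0511% ± 0.000882. The list was led by neurod (1700, 1941 and 1576), which made up 29.8% of it, followed by scg3, isl1 and pcsk2. None of these is a hormone gene, and whether their reads came from islet cells cannot be told in whole embryos. The hormones were lower, with insulin (ins) at 198, 152 and 164, glucagon (gcga) at 87, 71 and 72 and somatostatin (sst2) at 115, 115 and 96.

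Nervous system genes were steady in sum. Neuronal genes held 0.734%, 0.743% and 0.772%, led by the neuronal sodium pump gene atp1a3a (6117, 6550 and 6203). Astroglial genes held 0.267% ± 0.00151, led by the glutamate transporter gene slc1a2b (8829, 8640 and 8494), with gfap at 3247, 3452 and 3493. Myelin genes held 0.0672% ± 0.00301, with mbpb at 1225, 1123 and 1175. One defining neuronal marker departed from its list. The RNA-binding protein gene elavl3 stood at 737 in control 1, 1897 in control 2 and 2106 in control 3.

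Red blood cells were represented by embryonic globins. The genes hbae3 (11807, 11169 and 9574) and 1 copy of hbbe1.1 (8561, 8876 and 7433) led a list that held 0.321%, 0.340% and 0.283%. Of its 16 members with a mean of at least 50, 10 were highest in control 2 (62.5%, against 28.0% of all genes tested) and 14 were lowest in control 3 (87.5%, against 33.8%). The adult globin genes hbaa1 and ba1 were far lower. They fell in the same order over the pools as hbae3, but by more. The alpha gene hbaa1 stood at 132, 35 and 17, and the beta gene ba1 was also at least 2-fold higher in control 1 than in both others. Immune genes held 0.0194% ± 0.000564, with the neutrophil gene mpx at 229, 231 and 272 and the lysozyme gene lyz at 319, 290 and 191. Vessel genes held 0.0390% ± 0.00205, with kdrl, a receptor for vascular growth factor, at 488, 420 and 497. Pigment cell genes held 0.0913% ± 0.000993 and kidney genes 0.0467% ± 0.00225.

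Little signal came from the yolk protein, hatching gland and hormone lists. Yolk protein genes held 0.000953% ± 0.000164, of which vtg4 (89, 68 and 82) made up 73.3%, and hatching gland genes held 0.00110% ± 0.000260, with the hatching enzyme gene he1a at 30, 25 and 60. Pituitary and hypothalamic hormones held 0.00458% ± 0.000593, led by pomca (79, 78 and 85), the precursor of corticotropin. All 20 defining tissue markers checked were detected in every control. The labelled whole embryo was thus represented by muscle, heart, eye, skin, skeleton, gut, liver, pancreas, brain, blood, pigment and kidney markers alike.

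Genes used in all cells took a share comparable to that of muscle. Ribosomal protein genes held 5.29%, 4.72% and 4.40%, with rpl3 (23008, 20056 and 18083) and rplp0 (23218, 19919 and 17394) the highest. Translation factors held 2.17% ± 0.143, and non-muscle actins and tubulins 1.53% ± 0.10. Of the 82 ribosomal protein genes, 75 were highest in control 1 (91.5%, against 42.1% of all genes tested) and 70 lowest in control 3 (85.4%, against 33.8%). Glycolysis genes held 0.914% ± 0.0626, led by gapdh (12555, 9964 and 9779), and genes of the tricarboxylic acid cycle 0.437% ± 0.0242. The chaperone genes hspa8 (42792, 40155 and 35435) and hsp90ab1 (34324, 32583 and 29530) made up most of a list that held 0.855% ± 0.0372.

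The MT chromosome carries the 13 protein-coding genes of the respiratory chain that stay in the mitochondrion, beside the ribosomal and transfer RNA genes. Its 37 genes held 4.78% in control 1, 3.94% in control 2 and 4.22% in control 3 (mean 4.31% ± 0.425). Without control 1 the mean was 4.08%. Nearly all of this came from the protein-coding genes, with 4.67%, 3.85% and 4.13%. The other 24 genes, listed under clone-based symbols, held 0.112%, 0.0945% and 0.0857%.

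Within the mitochondrial reads the 3 subunits of complex IV, cytochrome c oxidase, took 51.9% ± 1.68. The 7 subunits of complex I, the NADH dehydrogenase, took 22.3% ± 0.551, the 2 subunits of ATP synthase 14.8% ± 1.36, and cytochrome b (mt-cyb), of complex III, 8.68% ± 0.206. The complex IV genes were higher in control 1: mt-co2 stood at 61840, 46785 and 48484 and mt-co3 at 78995, 60181 and 61829. On the log2 scale these 3 genes lay 0.37 to 0.38 above the mean of controls 2 and 3. The gene mt-nd5 lay only 0.04 above it (20985, 20182 and 20521), as did mt-atp6 (60515, 56311 and 61297). Of the 13 genes, 12 were highest in control 1, with mt-atp6, highest in control 3, the exception. Accordingly ATP synthase took 13.3% of the mitochondrial reads in control 1 against 15.4% and 15.8% in the others.

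**Figure D3:**
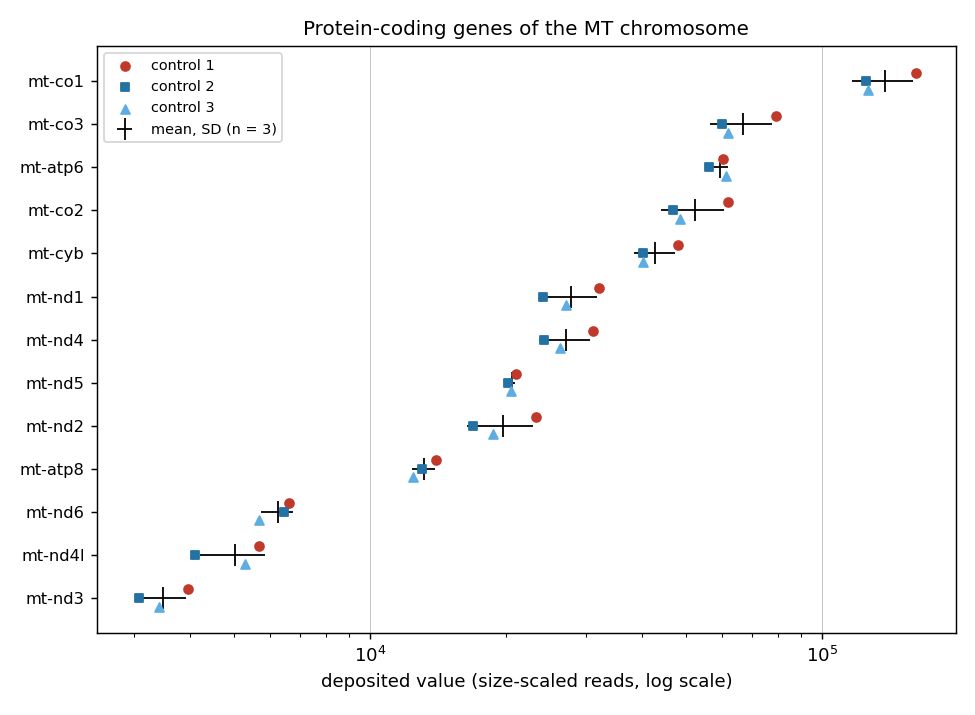
The 13 protein-coding genes of the MT chromosome are plotted with their deposited value (size-scaled reads, log scale) in each control, and the black bars show mean and SD (n = 3). Control 1 lies to the right of both other controls in 12 of the 13 genes, and the gap is small for mt-nd5 and absent for mt-atp6.

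Nuclear genes of oxidative phosphorylation held 1.41%, 1.22% and 1.22%, led by ATP5B (22902, 20369 and 18692), a catalytic subunit of ATP synthase. Of the 89 members with a mean of at least 50, 82 were highest in control 1 (92.1%, against 42.1% of all genes tested). Among the members with the largest range was NDUFB1, of complex I, at 421, 242 and 296. Mitochondrial and nuclear subunits were therefore both highest in the same pool. Their medians were 0.29 and 0.31 on the log2 scale, where the median of all genes was 0.03. The median of all genes rose with level, from -0.03 at means of 50 to 100 to 0.09 at 1000 to 10000. Above 10000 it was 0.17, so 0.03 is a low baseline for highly read genes. Depth was also lowest in control 1, and the parts of depth and level were not tested.

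Single genes were then compared between pools, by whether the value of 1 library lay at least 2-fold above or below both others among the 15714 genes with a mean of at least 50. Differences are log2(value + 1), which understates those of low genes. With 1 group there is no test, and the counts describe these libraries. Control 1 was at least 2-fold lower than both others in 472 genes (3.00%) and higher in 47 (0.299%). Control 2 was lower in 18 genes (0.115%) and higher in 0 (0.00%), and control 3 was lower in 5 (0.0318%) and higher in 9 (0.0573%). At 1.5-fold, control 1 was lower in 1081 genes (6.88%) and higher in 216 (1.37%), control 2 lower in 116 (0.738%) and higher in 30 (0.191%), and control 3 lower in 73 (0.465%) and higher in 96 (0.611%). Among genes with a mean of at least 50, most single-gene differences between the pools were thus genes low in control 1. Without that filter these were the largest group but not the majority.

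**Figure D4:**
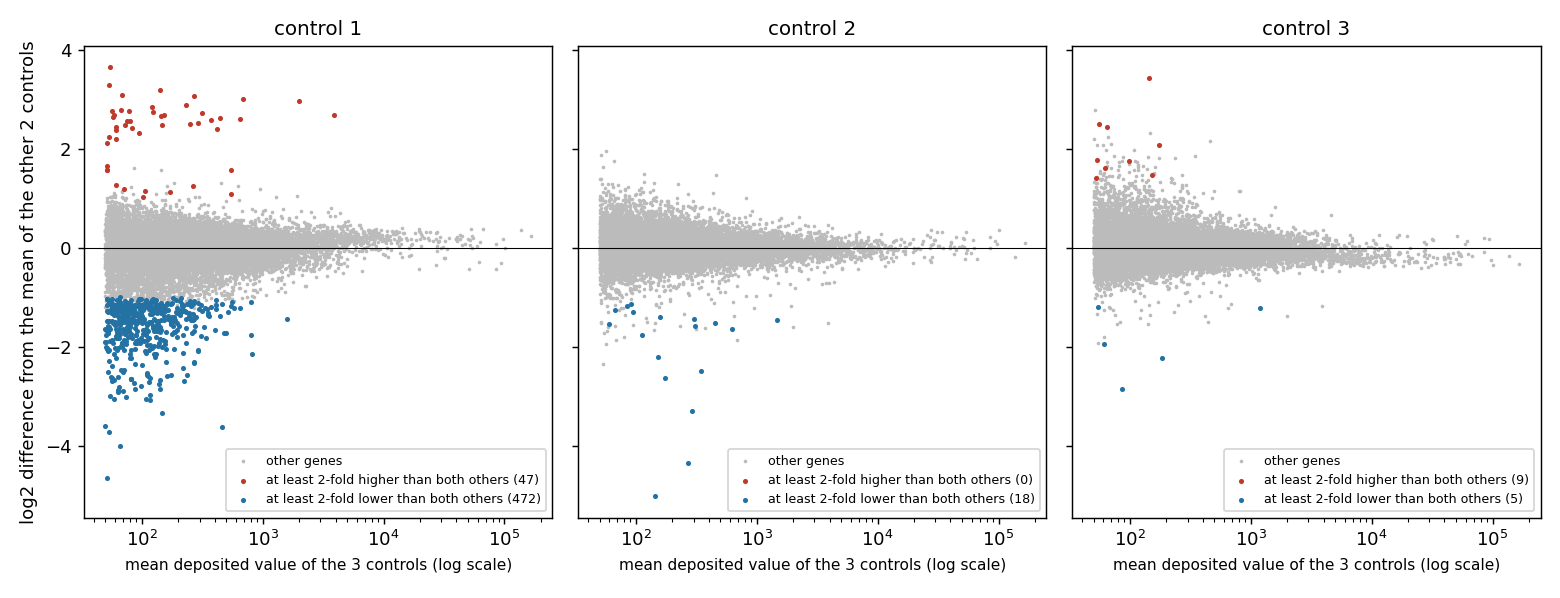
For each control, the log2 difference from the mean of the other 2 controls is plotted against the mean deposited value (log scale) for the 15714 genes with a mean of at least 50, with genes at least 2-fold above both others in red and below both in blue. Control 1 has 472 blue points, most of them at means under 300, and a separate band of red points.

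The 472 genes low in control 1 were mostly weak ones. Their median mean was 97.5, and they made up 7.62% of genes with a mean between 50 and 100, 3.34% of those between 100 and 300, 0.598% of those between 300 and 1000 and 0.0569% of those between 1000 and 10000. Above 10000 there were none among 111 genes. Together they held 0.243% of the reads in control 1, 0.681% in control 2 and 0.789% in control 3. They include 408 with a gene name (86.4%, close to the 86.9% of all genes tested). Depth was also lowest in control 1, and its part in the count was not tested.

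The strongest member by level was elavl3, given above. Next among those with a name was MYOM1 (2 of 2), a gene for a protein of the muscle M-band, with 307, 926 and 1182. The spectrin gene SPTBN1 (1 of 2), which encodes part of the membrane skeleton, stood at 53, 563 and 774, and DMXL2 (1 of 2), a gene linked to synaptic vesicles, at 19, 149 and 271. The vesicular glutamate transporter gene slc17a6a stood at 17, 121 and 184, the nuclear receptor gene roraa at 9, 63 and 106 and pkd2, a cation channel gene of cilia, at 12, 88 and 122. In each of these the lowest of controls 2 and 3 was far above control 1. A few were almost unread in that library: ACVR1B (2 of 2), an activin receptor gene, stood at 2, 60 and 92, where 2 units are 1 read, and uhmk1, ehd3 and RSF1 (3 of 3) at 5, or about 3 reads, in control 1 against 59 to 107 in the others.

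Among the lists, neuronal genes had 4 of 46 members at least 2-fold lower in control 1, where 3.00% of all genes tested were. They were elavl3, slc17a6a, the synaptic vesicle gene SV2A (53, 249 and 411) and the microtubule gene MAP1B (37, 139 and 202). The neuronal list as a whole was not lower in control 1. Its median log2 difference from controls 2 and 3 was 0.06, with 22 members highest in control 1 and 18 lowest. Vessel genes had 2 of 22 called, the receptor gene kdr (28, 98 and 103) and the junction gene cldn5a (30, 100 and 96). The median of the vessel list was 0.10, with 11 members highest in control 1 and 9 lowest. Other members are the matrix gene col6a3 (8, 44 and 113), in which control 3 was also over 2-fold above the others, and the iron regulator and aconitase gene aco1 (23, 131 and 187). Ribosomal protein, oxidative phosphorylation, lens and fast muscle genes had none, as had other lists such as skin, cartilage and liver genes. Calls were few over all genes (3.00%) and rarer at means between 1000 and 10000 (0.0569%). A list without any call is therefore not set apart by it.

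The 47 genes high in control 1 were of another kind. Of these, 25 (53.2%, against 4.53% of all genes tested) had clone-based symbols and 6 (12.8%, against 7.84%) had cDNA or clone project symbols. Another 3 were copies of 5.8S ribosomal RNA and 1 was the signal recognition particle RNA Metazoa_SRP. That left 12 with a gene name (25.5%, against 86.9%). The filter was on the mean of all 3 controls, so a high value in control 1 could by itself carry a gene past it. Many of these entries, such as the 5.8S copies and Metazoa_SRP, lay below the filter level in both other controls. Others, such as BX296557.7, lay above it in every control. The percentages of this set therefore depend on the filter. The 47 genes lay mostly on chromosomes 4 (13 genes), 20 (12) and 5 (8). Those chromosomes carry 2457, 1310 and 1772 of the 31452 genes listed. Their shares of the genes tested are not given here. Many of the clone-based entries have a clone name in common, such as BX296557 on chromosome 20 and BX537263 on chromosome 5. These entries may not be separate loci. The highest was BX296557.7 on chromosome 20, with 8946 in control 1, 1275 in control 2 and 1500 in control 3. The copies of zgc:158463 on chromosomes 20 and 5 stood at 4782, 583 and 644 and at 1641, 173 and 241. Together the 47 genes held 0.259%, 0.0441% and 0.0550% of the reads.

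Ribosomal RNA itself differed by kind. The 13 annotated copies of 5.8S RNA, which is part of the large subunit and is made from the same precursor as the 18S and 28S RNAs, summed to 596 in control 1, 71 in control 2 and 102 in control 3. The 5S copies, which are transcribed separately, summed to 594, 592 and 586. Metazoa_SRP stood at 143, 11 and 10 for its highest copy. In these sums the excess in control 1 was therefore seen for 5.8S RNA and not for 5S RNA. Only 1 of the 1899 5S copies had a mean of at least 50, and it lay 0.39 higher in control 1 on the log2 scale. The 3 copies of 5.8S RNA at that level lay 2.65 to 3.29 higher. These copies reached that level only through their values in control 1, whereas the sums cover all copies.

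The 12 named genes high in control 1 include amy2a, a pancreatic amylase gene (435, 184 and 182). It is the only member of the exocrine pancreas list among them, while the intestine list has 0. The lists do not hold every gene of a tissue, so this 0 does not show that intestinal genes are absent. The 12 also include slc15a1a, a peptide transporter gene, and the globin genes hbaa1 and ba1. The others are tm4sf4, gfra1a, hbl3, nsdhl, cpo, pdzd3b, PTGES3L and vwa5b1. The sterol synthesis gene nsdhl stood at 154, 75 and 75. Of these 12, vwa5b1 was at the same time 2-fold lower in control 2 than in both others (576, 38 and 256).

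Differences between pools are summarised by list. The measure is the median log2 difference of control 1 from the mean of controls 2 and 3, beside 0.03 over all genes. The value over all genes was 0.09 at means of 1000 to 10000 and 0.17 above 10000. For lists of highly read genes 0.03 is thus a low baseline. The exocrine pancreas stood at 0.64, with 20 of 22 members highest in control 1, and the intestine at 0.48, with 18 of 20. Antioxidant genes stood at 0.28 (25 of 27), lens genes at 0.28 (43 of 49), ribosomal protein genes at 0.27 and tricarboxylic acid cycle genes at 0.22 (20 of 25). Over all genes control 1 was highest in 42.1% of those tested. Below 0 lay inner ear and hair cell genes, at -0.20 with 7 of 9 members lowest in control 1, against 36.8% of all genes tested. Also below 0 were circadian clock genes (-0.07), bone and matrix genes (-0.05) and kidney genes (-0.01), of which the clock list turned above 0 without control 2 or with a mean of at least 200, and the kidney list without control 3 or with no filter. The exocrine pancreas, intestine, antioxidant, lens, ribosomal protein, tricarboxylic acid cycle and inner ear lists kept their sign with each library scaled to the same sum. Under that scaling the median over all genes shifted from 0.03 to -0.04. The members of a list share their libraries and are not independent of each other.

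**Figure D5:**
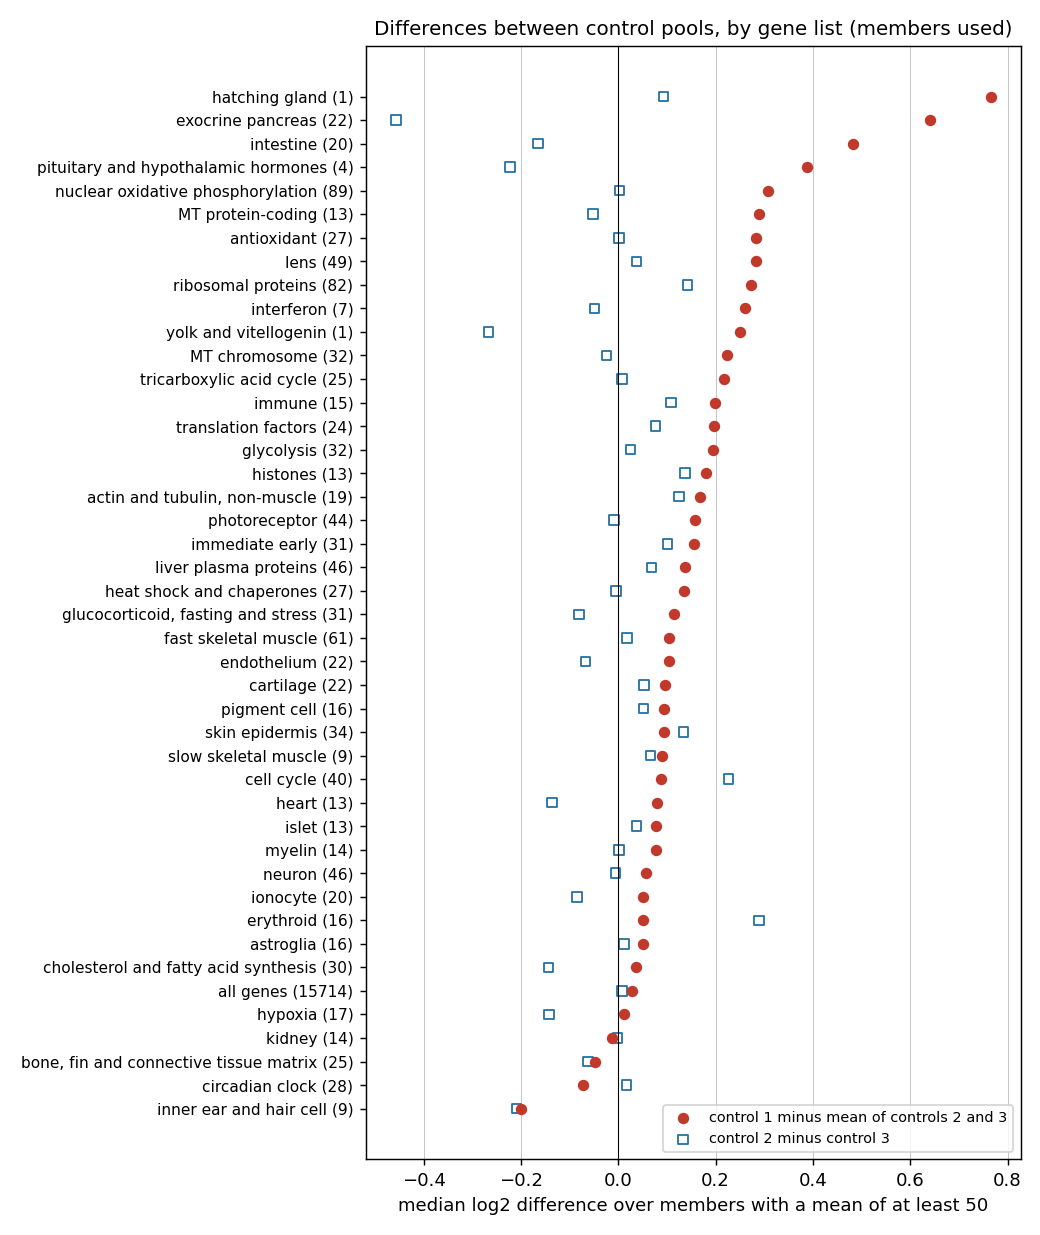
Each gene list is plotted with its median log2 difference of control 1 from the mean of controls 2 and 3 (filled) and of control 2 from control 3 (open), over members with a mean of at least 50, whose number follows the name. Exocrine pancreas and intestine lie far to the right in control 1 and to the left in control 2 against control 3, and lists with 1 member, such as hatching gland, show only that gene.

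Between controls 2 and 3 alone the largest list differences were those of the exocrine pancreas (median -0.46, control 2 minus control 3), erythroid genes (0.29) and cell cycle genes (0.23) among lists with at least 10 members used. The proliferation genes pcna (2653, 2482 and 2151) and hmgb2a (2875, 3406 and 2652) were lowest in control 3. So were 31 of the 40 cell cycle members tested (77.5%, against 33.8% of all genes). Histone genes that vary included h1f0, a linker histone gene, at 3811, 4714 and 3054.

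Among the 18 genes low in control 2, named here after their values were seen, the aminotransferase gene agxtb, an enzyme of glyoxylate breakdown, stood at 1915, 675 and 1807. The chymotrypsinogen gene zgc:136461 (current symbol ctrb.2) stood at 969, 254 and 649, acox3, a peroxisomal fatty acid oxidase gene, at 319, 139 and 454, and rhcgl1, an ammonia transporter gene, at 125, 42 and 167. Genes of the cytochrome P450 family in this set were cyp2x9 (131, 47 and 105) and cyp3c1l2 (115, 45 and 93). The largest differences were in less studied loci: CABZ01074268.1 on chromosome 16 stood at 125, 5 and 298 and si:ch211-145h19.2 on chromosome 4 at 553, 17 and 241. Also in the set were TCAIM (346, 81 and 606) and DNER, a Notch ligand gene of neurons (160, 36 and 325). In these 4 the values of controls 1 and 3 also differed by over 1.5-fold from each other. The gene highest in control 2 relative to the others was CABZ01048956.1 (276, 670 and 348), which did not reach 2-fold against control 3.

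Control 3 had few genes of its own. HEPHL1 (1 of 4), a gene of the copper-dependent ferroxidase family, stood at 48, 62 and 187 and si:dkey-191g9.5 at 83, 110 and 267. The ion transporter gene slc12a10.2, known from ionocytes, stood at 72, 97 and 190, just inside 2-fold of control 2. Lower in control 3 were nsa2, a ribosome biogenesis gene (1569, 1398 and 636), CAPN2 (3 of 4), a calcium-dependent protease gene (273, 226 and 52), and TRIM14 (2 of 27), of a family with many near copies (132, 111 and 16). Of the named genes, nsa2 was the only one here with a mean over 1000.

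The morpholino target of the series, slc2a12 on chromosome 23, stood at 160 in control 1, 145 in control 2 and 143 in control 3 (149 ± 9.29), rank 10320 of 31452 by mean. It varied less between these pools than most genes of its level, for which the median absolute log2 difference was 0.23 between controls 1 and 2 and 0.24 between controls 1 and 3.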

How the data were processed

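Libraries were made from total RNA of 10 pooled embryos each, and reads were mapped to the Zv9 build, per the submitters' processing notes. Any step that selected or removed kinds of RNA before sequencing is not described here. The aligner, read counter, annotation and strand setting are details not given in the sources used here. Without strand, reads of overlapping genes cannot be told apart. The deposited values are a score: whole numbers per gene that, judged from their regular gaps, are read counts the authors divided by a size factor per library and then rounded. Because of the rounding, exact reads were not recovered and no count test was run. The worth of 1 read was estimated per library from which values up to 300 occur.

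Genes were ranked by their mean over the 3 controls, and shares were taken of each library's sum. Pools were compared as log2(value + 1), for genes with a mean of at least 50, by whether 1 library lay at least 2-fold above or below both others. With 1 group of 3 libraries no test between groups applies. Percentages of genes beyond the 95% interval cover counting error only. Of 1357 entries in 41 gene lists, 1266 were found, 80 of them by current symbol. Genes named were the 20 highest by mean, 10 in each direction for control 1 and 5 for controls 2 and 3 with the largest difference between pools, up to 4 highest and 3 most variable members per list, the genes of the MT chromosome and slc2a12. Some results covered by this rule are left out here. Other genes in the text were chosen after their values were seen. The members and lists were chosen with earlier results of these data known. Alternatives were other scalings, pseudocounts of 0.1 and 10, other filters, other folds, other totals and each library left out. Computations used Python 3.11.15, numpy 2.4.6 and pandas 2.3.3, and the step search and the calls were tested on simulated data. The 3 morphant libraries were not used.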

Additional observations from a re-analysis of the deposited data

How the results depend on the processing

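With each library left out in turn, the share of the MT chromosome ranged from 4.08% to 4.50%. The share of the highest 10 genes ranged from 8.29% to 8.5% and that of fast muscle from 10.18% to 10.40%. A mean of 3 libraries always stays within 1 SD when 1 is left out, so these ranges are description and no check. With totals taken outside the MT chromosome, the highest 10 genes held 7.89%, the highest 100 held 25.9%, the highest 1000 held 53.8%, 765 genes reached 50%, and fast muscle held 10.7%. With members matched by the files' symbols alone, lens held 1.21%, skin 2.16% and exocrine pancreas 0.161%, intestine 0.0970% and hatching gland 0.000613%, since fewer members were found. The counts of genes differing between pools, given as higher and lower for controls 1, 2 and 3 in turn, depended on the filter and the fold. With a mean of at least 20 they were 86 and 826, 10 and 52, and 29 and 21. With a mean of at least 200 they were 15 and 78 for control 1, 8 lower for control 2, and 0 and 1 for control 3. With no filter they were 836 and 2113, 811 and 516, and 717 and 596. At 1.5-fold they were 216 and 1081, 30 and 116, and 96 and 73. Scaling to equal totals gave 15 genes higher in control 3, a pseudocount of 10 gave 3 lower in control 3, and counting only genes with a symbol other than clone-based, 5S, 5.8S or SRP, an alternative chosen after seeing the data, left 18 higher in control 1. More genes were lower than higher in control 1 under each of these. The list medians of ionocyte, neuron, astroglia, erythroid, hypoxia and sterol synthesis genes, all near 0, changed sign with equal totals; those of the exocrine pancreas, intestine and ribosomal proteins did not. The counts of genes could not be recomputed with a library left out, since they need 3 libraries. The comparison per protein length was not run, since no length table of this build was used here. Depth limits genes under about 50 units most in control 1. No paired analysis was possible because only 1 group was described and no test was made.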

Other observations

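Classes of muscle genes varied differently between the pools, a grouping by symbol chosen after the values were seen and given without a test. The lists held 11 myosin heavy chain genes of fast, slow and heart muscle with a mean of at least 50. Of these, 10 were lowest in control 1 and 0 were highest in it. Over all genes tested 36.8% were lowest and 42.1% highest in control 1. The median log2 difference of the 11 genes from the other controls was -0.36. Myosin heavy chain genes outside the lists, such as myhc4 and myh7ba, were not counted. The exception among the 11 was smyhc3 (1563, 1598 and 1390). Of 8 genes for titin, nebulin, ryanodine receptors and muscle calcium channels, very large proteins of the same fibres, 7 were lowest in control 1, with a median of -0.27. The calcium release channel gene ryr1b stood at 623, 1062 and 1158 and the calcium channel gene cacna1sb at 499, 744 and 807. Of 27 genes for troponins, tropomyosins, myosin light chains and parvalbumins, which are small proteins, 18 were highest in control 1 and 3 lowest, with a median of 0.16. The troponin gene tnni2b.2 stood at 2843, 1839 and 2268. Between controls 2 and 3 the medians of the 3 classes were -0.02, -0.11 and 0.06.

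Genes grouped by the start of their symbol also differed between pools. Of 26 semaphorin genes (sema), for axon guidance cues, 7 (26.9%) were at least 1.5-fold lower in control 1 than in both others, where 6.88% of all genes tested were. The mapk genes had 6 of 19 (31.6%), the protocadherin genes (pcdh), for neuronal adhesion proteins, 6 of 25 (24%) and the kinesin genes (kif), for motors on microtubules, 7 of 37 (18.9%). The highest share of any family was that of the arhgap genes, 11 of 33 (33.3%), and the stk genes had 5 of 21 (23.8%). The cacna and syt genes had 2 of 19 (10.5%) each. The translation initiation genes (eif) had 0 of 64 and the large-subunit ribosomal genes (rpl) 0 of 45. The proteasome genes psmd had 0 of 16, which is near the share of all genes. These families were chosen after seeing values, from 84 with at least 15 genes. They were not matched for level. Over all genes, calls at least 2-fold lower in control 1 fell from 7.62% at means of 50 to 100 to 0.0569% at 1000 to 10000. The part of level in the family shares was not tested. The cytochrome P450 genes (cyp) had 5 of 53 (9.43%) at least 1.5-fold lower in control 2, where 0.738% of all genes tested were. In control 1 the same family had 4 (7.55%) higher, against 1.37% of all genes tested, and 5 (9.43%) lower, against 6.88%. Its variation was thus not confined to control 2.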
